A study of Mus musculus with 6 samples.

Results

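The multi-domain BCL2 family was followed in mouse embryonic stem cells (mESCs) after acute loss of Dicer. The 7 members are the guardians Bcl2, Bcl2l1, Bcl2l2 and Mcl1, the pore-forming effectors Bok and Bak1, and Bcl2l13. They were taken by name: a probe set was kept when its only gene symbol in the array annotation was 1 of these 7. This gave 24 of the 45037 probe sets on the array, for 7 of 18193 named genes. All cells carried floxed Dicer alleles (Dicer flox/flox), were grown without feeders on gelatin with serum and LIF, and were profiled 5 days after transfection. Dcr WT cells received GFP alone (3 arrays) and Dcr KO cells received GFP together with Cre recombinase (3 arrays), as polyclonal populations and not as clones. No arrays here had Cre without the deletion, so effects of Cre and of Dicer loss cannot be told apart. Values are log2 expression after the authors' background correction and normalization, and the probe sets of a gene were averaged.

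Members of this family meet at the outer mitochondrial membrane. Guardians hold effectors and BH3-only proteins in complexes, while effectors that are set free assemble into pores that let cytochrome c out and so start the caspase cascade. Embryonic stem cells are known to undergo apoptosis readily after DNA damage. Dicer, the enzyme deleted here, cuts miRNA precursors into mature miRNAs, and in mESCs the most abundant of these come from the mir-295 cluster. The 3′ arms of 5 cluster miRNAs are shown because Dicer is the enzyme that makes them. They are from RefSeq (GRCm38.p6, plus strand, chr7:3218674-3220837 from the first to the last), with seed bases 2 to 8 in capitals. The first 3 share the seed AAGUGCU, the other two have AAGUGCC and AAGUGCA, and all 5 share AAGUGC. The study also names miR-292-3p among the cluster miRNAs with AAGUGC, which is not shown here. MiRNAs were not measured on these arrays and no target sites in the members were analysed here.
mmu-miR-291a-3p: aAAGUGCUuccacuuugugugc
mmu-miR-294-3p: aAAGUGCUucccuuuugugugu
mmu-miR-295-3p: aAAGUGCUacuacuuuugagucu
mmu-miR-290a-3p: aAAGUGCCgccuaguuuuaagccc
mmu-miR-291b-3p: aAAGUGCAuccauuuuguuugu

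Dicer1 itself, averaged over its probe sets, was at 7.78, 7.89 and 7.16 on the Dcr WT arrays and at 6.33, 6.59 and 5.92 on the Dcr KO arrays, lower on every Dcr KO array (adjusted p = 0.0134 from limma, a linear model across genes). The position of these probe sets against the loxP sites was not analysed here. The study describes the cells on day 5 as predominantly Dicer null, with most miRNAs lost, so Dcr KO does not mean complete loss. Of 10 embryonic stem cell markers 10 passed the minimum level, with group means from 5.15 (Utf1 in Dcr KO) to 14.18 (Dppa5a in Dcr KO). None passed limma after adjustment, and 5 had an unadjusted p under 0.05, as had 2813 of all 8782 genes tested. Their summed linear level was 45218 to 49591 in Dcr WT and 49978 to 51322 in Dcr KO. Of 5 neural markers, Tubb3 was higher in Dcr KO and 3 were under the minimum. The summed level was 323 to 376 in Dcr WT and 522 to 602 in Dcr KO, most of it Tubb3. Nes, the other marker tested, differed by -0.07 on the log2 scale with overlapping groups. Sox1 (0.89), Pax6 (0.58) and Map2 (0.21), all under the minimum, were higher in Dcr KO without overlap. Of 7 fibroblast markers 5 were under the minimum, with sums of 63.6 to 92.4 in Dcr WT and 82.7 to 85.9 in Dcr KO. These 5 moved in both directions without overlap. Col3a1 (1.22), Postn (0.72) and Dcn (0.65) were higher in Dcr KO on the log2 scale, and Col1a2 (-0.71) and Thy1 (-0.62) lower. Groups overlapped for the tested Col1a1 and Pdgfrb. Primitive endoderm markers were under it in 6 of 7 (50.4 to 54.5 and 50.9 to 55.4), and trophectoderm markers in 2 of 5 (937 to 1197 and 842 to 1391). The part of other cell types in the results that follow was not tested. Pearson correlations between arrays over all probe sets ran from 0.9837 to 0.9972, and the lowest pair was Dcr WT replicate 2 with Dcr KO replicate 3.

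Bok was the 1 member that passed the test. It was lower in Dcr KO by 0.86 on the log2 scale, which left 55.0% of its Dcr WT signal, while no guardian passed the test in either direction. Of the 5 members whose mean over all arrays reached the minimum for testing, a log2 level of 4 (16 in linear units), 1 was called lower and 0 higher, and 2 had an unadjusted p under 0.05 (Bok and Bcl2l13). For all 8782 genes tested, 13.3% were called, with 6.42% lower, so 1 call among 5 members is near the background. An unadjusted p under 0.05 was reached by 2813 of the 8782, so 2 of 5 members is near the background too. Bcl2 and Bcl2l2 fell under the minimum as gene means and were not tested as genes. The median log2 difference of the 5 tested members was -0.10, against -0.02 for all genes tested. Groups did not overlap in 3 of the 5 (Mcl1 higher, Bok and Bcl2l13 lower in Dcr KO), against 39.0% of all genes tested. Of the 5 members with a Dcr WT mean of at least 16, 1 was up at least 1.2-fold (Bcl2l1) and 2 were down at least 1.2-fold (Bok and Bcl2l13). The same steps took 18.1% of such genes up and 22.0% down. Bcl2l1 was under 1.2-fold, leaving 0 members up, when Dcr WT replicate 2 was left out and when Dcr KO replicate 3 was. Bcl2l13 was under it, leaving 1 down, when Dcr WT replicate 1 was left out. In a bulk sample, fewer cells expressing a gene and less RNA of it per cell cannot be told apart.

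**Figure D1:**
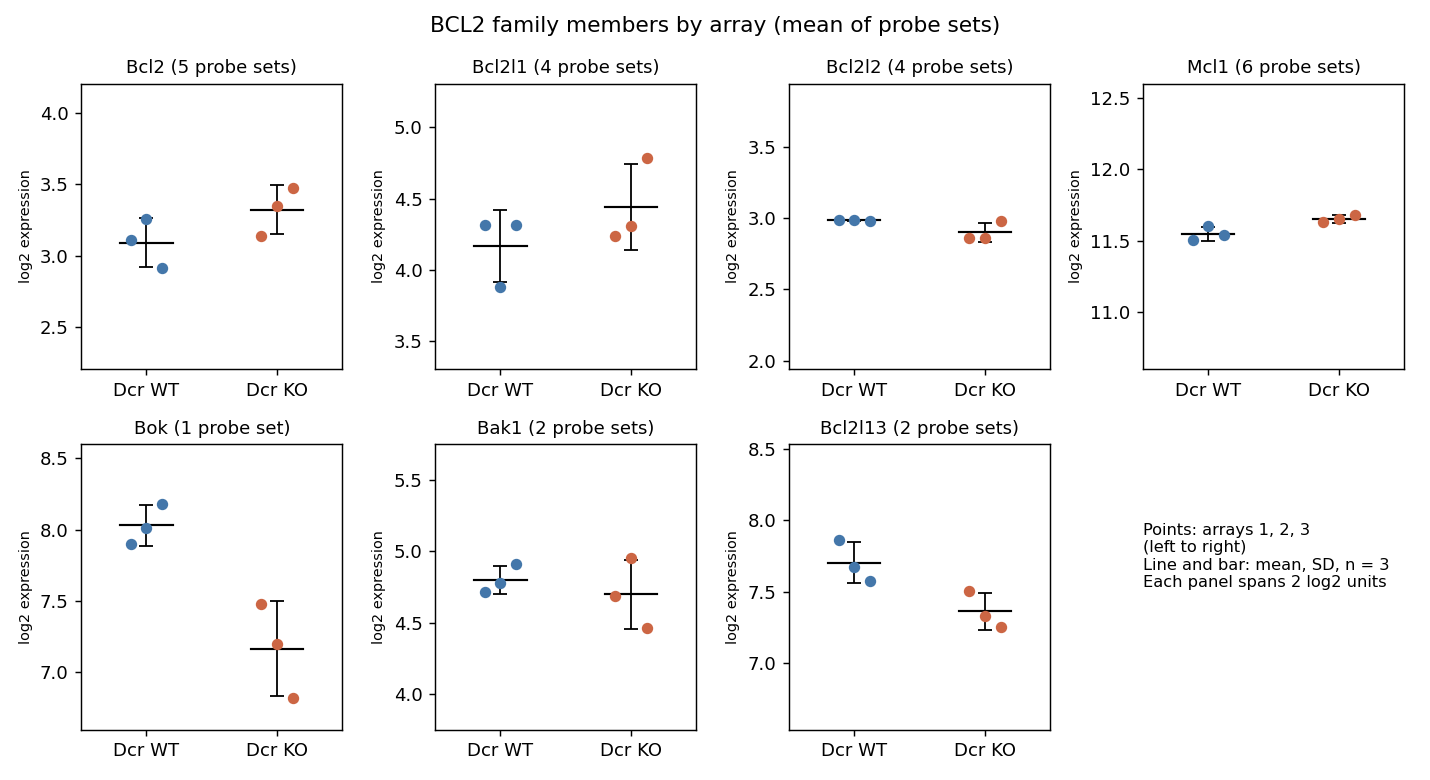
Log2 expression (vertical axis) of each member on each array, by group (points, replicates 1 to 3 from left to right; line and bar, mean and SD, n = 3). Every panel spans the same range around its own mean. Bok shows the widest gap, with Dcr KO arrays between 6.82 and 7.48 below Dcr WT arrays between 7.90 and 8.18.

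Mcl1 encodes a short-lived guardian that binds BAK and BH3-only proteins. Its gene value was 11.50, 11.60 and 11.54 on the Dcr WT arrays and 11.63, 11.65 and 11.68 on the Dcr KO arrays. All Dcr KO values were higher. With variance estimated gene by gene, the standard error was 0.03 and Mcl1 also did not pass (adjusted p = 0.156 from lmFit alone). The log2 difference was 0.11 (standard error 0.09, 95% interval -0.10 to 0.32, adjusted p = 0.455 from limma), so the interval allows a rise of up to 1.24-fold and a fall of up to 1.08-fold. Mcl1 had 6 probe sets, all of them bright, with means from 10.75 to 12.84. Each was higher in Dcr KO, by 0.05 to 0.17, and none passed over probe sets. The brightest, 1448503_at, read 12.78, 12.67 and 12.82 in Dcr WT and 12.93, 12.88 and 12.97 in Dcr KO. It was the only Mcl1 probe set whose groups did not overlap (adjusted p = 0.327 from limma).

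Bcl2l1 encodes BCL-X, whose long form BCL-XL is a guardian and whose short form promotes death. The gene value was 4.32, 3.88 and 4.32 in Dcr WT and 4.24, 4.31 and 4.79 in Dcr KO. The groups overlapped, with Dcr WT replicate 2 lowest and Dcr KO replicate 3 highest. The log2 difference was 0.27 (95% interval -0.15 to 0.70, adjusted p = 0.340 from limma), and it was 0.13 without Dcr WT replicate 2 and 0.10 without Dcr KO replicate 3. This mean blends 4 probe sets whose own means run from 1.31 to 7.64, and 2 of them lay under the minimum. The brightest, 1420888_at, read 7.49, 8.01 and 7.29 in Dcr WT and 7.70, 7.46 and 7.86 in Dcr KO, a log2 difference of 0.08 (95% interval -0.42 to 0.57) with overlapping groups. The other one above the minimum, 1420887_a_at, read 5.15, 4.54 and 5.05 in Dcr WT and 4.90, 4.97 and 5.67 in Dcr KO, a difference of 0.27 (95% interval -0.34 to 0.87), also with overlap. The largest difference, 0.59, was in 1426191_a_at, a dim probe set with an SD of 0.81 within Dcr WT.

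Bcl2, the founding guardian of the family, was dim. Of its 5 probe sets 4 had means under the minimum, from 2.04 to 3.15. The gene value was 3.11, 3.26 and 2.91 in Dcr WT and 3.14, 3.35 and 3.48 in Dcr KO, with overlapping groups, and was not tested. The brightest probe set, 1457687_at, read 5.52, 5.78 and 5.38 in Dcr WT and 5.77, 5.75 and 6.18 in Dcr KO. These groups overlap through Dcr WT replicate 2, and the log2 difference of 0.34 did not pass (95% interval -0.06 to 0.74, adjusted p = 0.241 from limma over probe sets). All 5 probe sets were higher in Dcr KO, by 0.07 to 0.40. Probe set 1437122_at, with the difference of 0.40, showed no overlap between the groups at levels of 2.78 to 3.11 and 3.24 to 3.47, under the minimum. Probe sets of a gene read the same RNA samples and are not replicates.

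Bcl2l2 encodes BCL-W, a guardian with a known part in spermatogenesis. Its gene value was 2.99, 2.99 and 2.98 in Dcr WT and 2.86, 2.86 and 2.98 in Dcr KO, and it was not tested. Dcr WT replicate 3 and Dcr KO replicate 3 had the same value, so the groups met. Of 4 probe sets, 1423572_at alone was above the minimum. It read 6.15, 6.06 and 5.69 in Dcr WT and 5.43, 5.73 and 5.78 in Dcr KO, a log2 difference of -0.32 (95% interval -0.71 to 0.07, adjusted p = 0.259 from limma over probe sets). Dcr WT replicate 3 lay among the Dcr KO values. The other 3 probe sets, with means from 1.65 to 2.26, differed by -0.07 to 0.07.

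**Figure D2:**
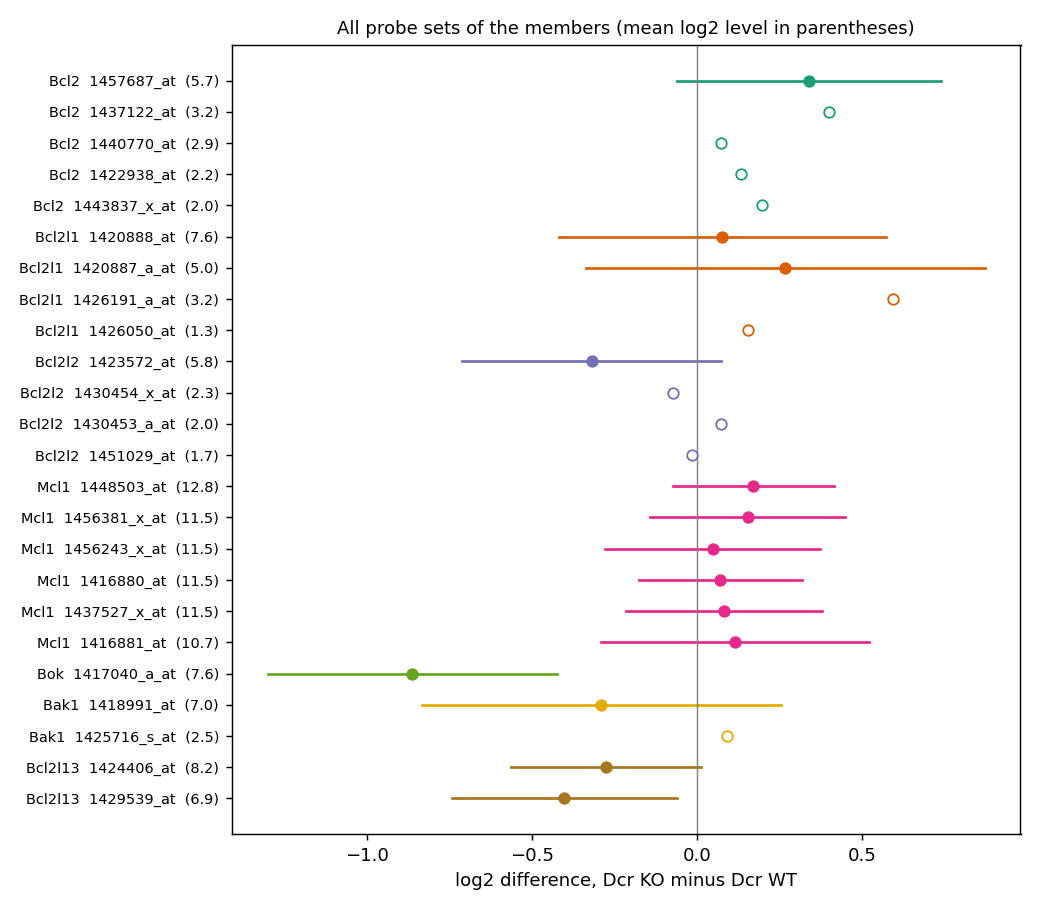
Log2 difference, Dcr KO minus Dcr WT (horizontal axis), of all 24 probe sets of the members (vertical axis, mean log2 level in parentheses). Filled points passed the minimum level and carry the 95% interval from limma, and open points were under it. The interval of Bok lies from -1.30 to -0.42, and the intervals of all 6 Mcl1 probe sets include 0.

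Bok encodes an effector of the BAX and BAK type that sits largely at the endoplasmic reticulum and is known to form pores without being held back by guardians. Its single probe set, 1417040_a_at, read 7.90, 8.01 and 8.18 in Dcr WT and 7.48, 7.20 and 6.82 in Dcr KO. Every Dcr KO array lay below every Dcr WT array, and Dcr KO replicate 3 was lowest. The group means were 8.03 ± 0.14 (SD, n = 3) and 7.17 ± 0.33 (SD, n = 3). Bok was 1.82-fold lower in Dcr KO, with a 95% interval of 1.38-fold to 2.40-fold (standard error 0.17 on the log2 scale, adjusted p = 0.0207 from limma over genes). Over probe sets, where 3.07% of 18789 were called lower, Bok was the 1 call among 14 tested member probe sets (adjusted p = 0.0404 from limma). With single arrays left out the log2 difference ranged from -1.02 without Dcr KO replicate 1 to -0.69 without Dcr KO replicate 3. The call over genes was lost when Dcr WT replicate 3 was left out (adjusted p = 0.0771 from limma), when Dcr KO replicate 2 was left out (adjusted p = 0.0617 from limma) and when variance was estimated gene by gene (adjusted p = 0.119 from lmFit alone). Over probe sets it was lost whichever array was left out. With 3 arrays against 3, an exact permutation test cannot give a two-sided p below 0.1.

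Bak1 encodes BAK, an effector that resides in the outer mitochondrial membrane. The gene value was 4.72, 4.78 and 4.91 in Dcr WT and 4.69, 4.95 and 4.47 in Dcr KO, so the Dcr KO arrays lay on both sides of the Dcr WT arrays. The log2 difference was -0.10 (standard error 0.14, 95% interval -0.42 to 0.22, adjusted p = 0.652 from limma), and it was 0.02 without Dcr KO replicate 3. The bright probe set, 1418991_at, read 6.71, 7.39 and 7.26 in Dcr WT and 7.09, 6.91 and 6.49 in Dcr KO. Its log2 difference was -0.29 (95% interval -0.83 to 0.25, adjusted p = 0.443 from limma over probe sets), with Dcr WT replicate 1 among the Dcr KO values. The other probe set, 1425716_s_at, had a mean of 2.53, and counts as much as the bright one in the gene value. Whether the changes of Bok and Bak1 differ was not tested.

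Bcl2l13 encodes BCL-RAMBO, an outer membrane protein with BCL2 homology that also acts as a mitophagy receptor. The gene value was 7.86, 7.68 and 7.58 in Dcr WT and 7.51, 7.33 and 7.26 in Dcr KO. No Dcr KO array reached the lowest Dcr WT array. The log2 difference was -0.34 (standard error 0.12, 95% interval -0.61 to -0.07), which passed at an unadjusted level and not after adjustment (adjusted p = 0.0944 from limma). At the unadjusted level 2813 of all 8782 genes tested passed. Both probe sets were bright and both were lower on all Dcr KO arrays. Probe set 1424406_at read 8.40, 8.31 and 8.22 in Dcr WT and 8.20, 7.93 and 7.97 in Dcr KO, and 1429539_at read 7.32, 7.04 and 6.93 against 6.81, 6.73 and 6.54. The difference was -0.28 in the former (adjusted p = 0.194 from limma over probe sets) and -0.40 in the latter (adjusted p = 0.129). In none of the fits with other settings did Bcl2l13 pass, with adjusted p from 0.0735 to 0.237 and log2 differences from -0.41 to -0.26.

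**Figure D3:**
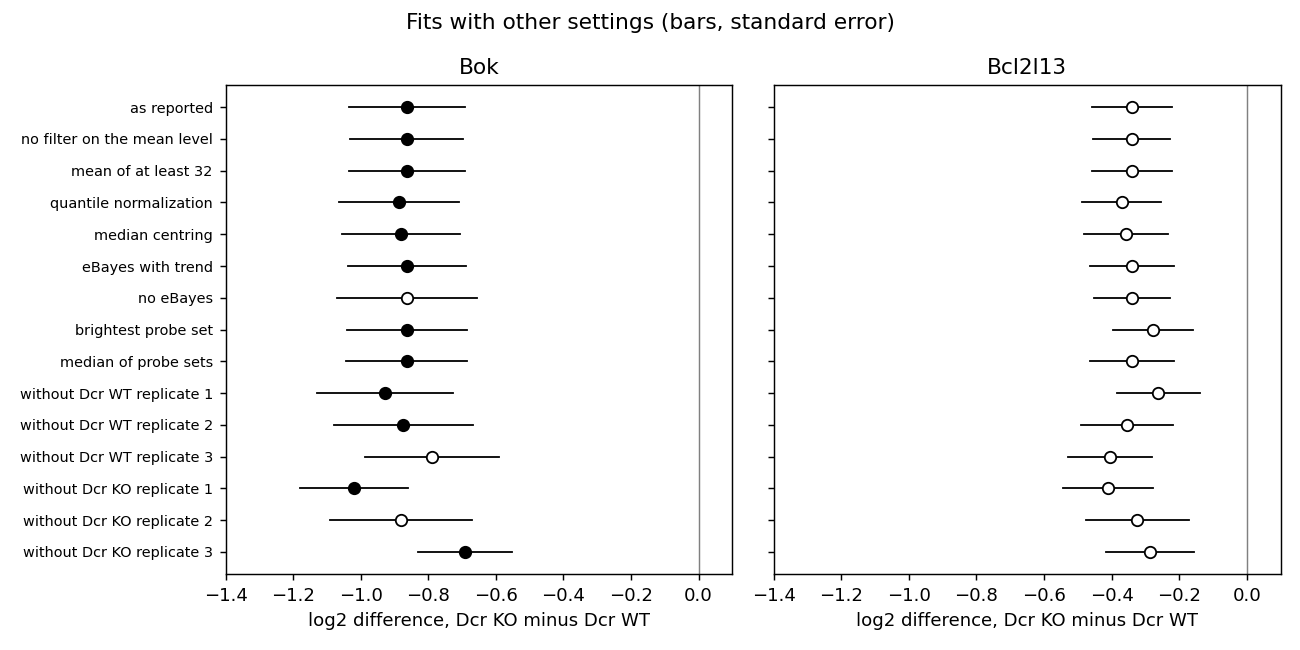
Log2 difference, Dcr KO minus Dcr WT (horizontal axis; bars, standard error), of Bok and Bcl2l13 in the fit as reported and in fits with other settings (vertical axis; the fit with the replicate number as a block is not plotted). Filled points had an adjusted p under 0.05. All points lie below 0, and Bok is open in 3 of the settings shown while Bcl2l13 is open in all of them.

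The promoters of Bok and Bcl2l13 are shown because these were the members lower on every Dcr KO array. They are RefSeq sequences of GRCm38.p6, from 250 bases before to 50 after the gene's start. Capitals mark the GC box, GGGCGG or its reverse complement CCGCCC, which Sp1-type factors are known to bind. Bok lies at chr1:93685325-93685624 and Bcl2l13 at chr6:120835980-120836279, both on the plus strand.
Bok: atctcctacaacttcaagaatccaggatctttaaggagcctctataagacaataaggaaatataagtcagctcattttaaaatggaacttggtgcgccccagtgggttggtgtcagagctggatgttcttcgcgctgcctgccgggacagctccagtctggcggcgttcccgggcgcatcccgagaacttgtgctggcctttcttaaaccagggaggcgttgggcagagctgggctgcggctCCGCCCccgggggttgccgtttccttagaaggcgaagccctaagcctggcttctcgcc
Bcl2l13: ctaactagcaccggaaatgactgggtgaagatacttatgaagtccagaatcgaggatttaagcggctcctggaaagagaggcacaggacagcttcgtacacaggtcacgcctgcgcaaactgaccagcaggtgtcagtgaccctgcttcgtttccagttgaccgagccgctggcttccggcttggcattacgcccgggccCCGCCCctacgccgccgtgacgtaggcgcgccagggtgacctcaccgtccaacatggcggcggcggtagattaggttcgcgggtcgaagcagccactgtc

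Each of these promoters held 1 GC box, and 35.7% of all 32851 promoters in the table held at least 1. The promoters of Mcl1 and Bcl2l2 also held 1 each, those of Bak1 and Bcl2l1 (3 starts) held 0, and that of Bcl2 held 7, where 5.49% of all promoters held 4 or more. Neither an E-box (CACGTG) nor a TATA motif (TATAAA or TTTATA) was found in any of the 9 promoters of the 7 genes, against 7.15% and 13.6% of all promoters. CG dinucleotides numbered 16 in Bok and 26 in Bcl2l13, against a median of 7 over all promoters, and 44 in Bcl2. These letters describe the windows and say nothing of factor binding.

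Around the members, 6 further lists of the mitochondrial pathway held 70 genes, of which 58 had a probe set with a single symbol and 49 were tested. In these 49 genes 2 were higher in Dcr KO and 1 was lower, against 6.91% higher and 6.42% lower over all genes tested. Of 6 BH3-only genes tested, the messengers that engage guardians and effectors, Bbc3 (PUMA) was lower by 0.63 on the log2 scale (adjusted p = 0.0309 from limma). The other 5 did not pass, with differences from -1.24 (Bnip3, adjusted p = 0.0540 from limma) to 0.29 and a list median of -0.12. Of 8 genes of the apoptosome and of proteins released through the pores, Aifm1 was higher by 0.38 (adjusted p = 0.0370 from limma) and 7 did not pass, with a median of -0.10. Cycs, which encodes the released cytochrome c and was singled out after its values were seen, had a log2 difference of -0.02 (95% interval -0.27 to 0.22). Of 10 partners at the endoplasmic reticulum and in calcium handling, Ei24, a p53 target known to bind BCL2, was higher by 0.61 (adjusted p = 0.0105 from limma) and 9 did not pass, with a median of -0.18. Ei24 and Aifm1 are on the study's list of candidate targets, as are Mfn2, Usp9x, Akt1, Atp2a2 and Dnm1l of these 6 lists. That list was drawn up with these same arrays in use, so being on it is not independent evidence of the direction of these genes. For Ei24 the study also used a reporter, which Dcr WT cells repressed relative to Dcr KO cells unless its seed site was mutated. Transfected miR-295 restored its repression in Dcr KO cells. The study also tested the reporter in cells lacking the mir-295 cluster, and knocked Ei24 down in apoptosis assays. Aifm1 lost its call whichever array was left out (highest adjusted p = 0.135 from limma) and Bbc3 lost it with any array but Dcr KO replicate 1 left out (highest adjusted p = 0.104 from limma). Ei24 kept its call in all 15 fits with other settings (highest adjusted p = 0.0464 from limma).

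None of the 14 outer membrane and pore partners, which include the channels Vdac1, Vdac2 and Vdac3 and the fusion and fission proteins, passed limma. An unadjusted p under 0.05 was seen for 1 of them, against 2813 of all 8782 genes tested. The smallest adjusted p were 0.106 for Mfn2, a fusion protein (log2 difference 0.39), and 0.205 for Vdac3 (0.22), and the list median was 0.01. On its brightest probe set Mfn2 differed by 0.91 and passed (adjusted p = 0.0120 from limma). It also passed with Dcr WT replicate 2 left out, at a log2 difference of 0.54 (adjusted p = 0.0307 from limma). None of the 9 genes that control the stability or expression of members passed, and 1 had an unadjusted p under 0.05. Fbxw7, the ubiquitin ligase adaptor that marks MCL1 for degradation, had a log2 difference of 0.33 (adjusted p = 0.150 from limma), and Usp9x, a deubiquitinase that stabilizes MCL1, 0.55 (adjusted p = 0.157 from limma), with a list median of 0.20. Neither of the 2 tested genes of the remaining list, Bclaf1 (0.30) and Bcl2l12 (0.18), passed, with 0 at an unadjusted p under 0.05.

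**Figure D4:**
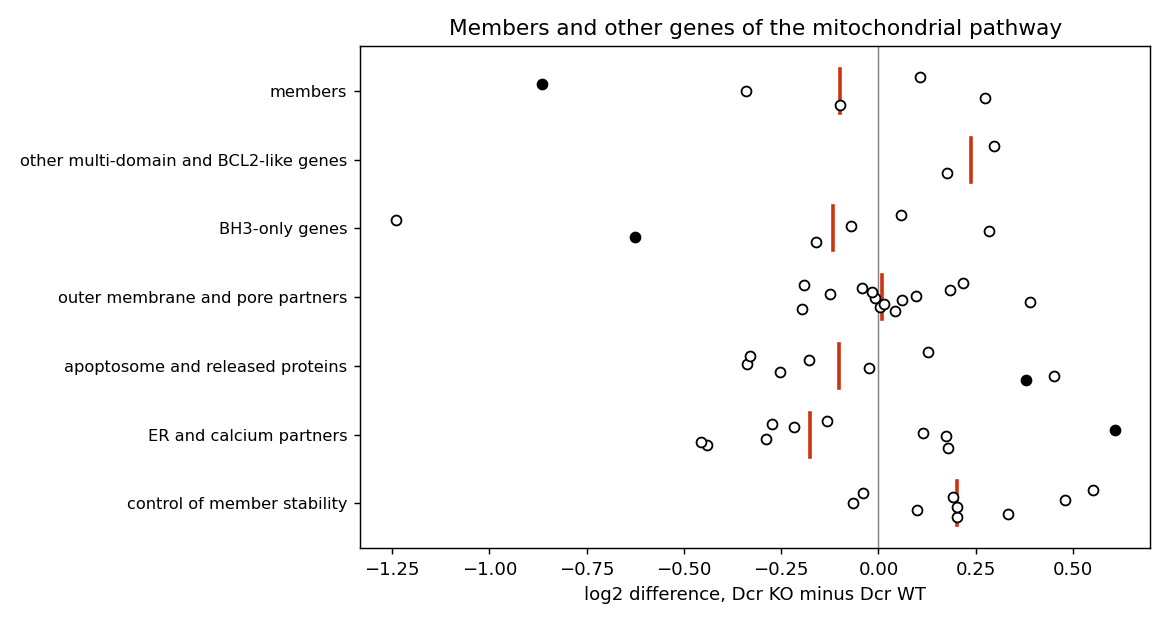
Log2 difference, Dcr KO minus Dcr WT (horizontal axis), of the tested members and of the tested genes of 6 lists of the mitochondrial pathway (vertical axis; 1 point per gene, vertical scatter without meaning). Filled points had an adjusted p under 0.05 from limma and red bars are list medians, which lie between -0.18 and 0.24.

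Over the 6 arrays, the genes whose values ran most like Bok were Wdr31 (Pearson r = 0.996) and Pdxp (0.994). For Bcl2l13 they were Dok2 and Slc17a5, for Mcl1 Mvp and Plscr3, for Bcl2l1 Vps41 and Pcf11, and for Bak1 Sacm1l and 2310057M21Rik, with r from 0.975 to 0.995. These are the highest of 8781 correlations each, over 6 arrays that share their groups and normalization, and are given as descriptions.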

How the data were processed

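RNA of 3 Dcr WT and 3 Dcr KO mESC populations was hybridised to oligonucleotide arrays 5 days after transfection. The authors deposited log2 values, 1 per probe set and array, made with GCRMA 2.20.0 in R 2.11.1 according to the submitters' processing notes. A supplementary legend of the study describes normalization jointly with arrays of long-term Dicer deletion lines, which were not analysed here. For a genome build, none was given in the sources used here. No detection calls came with the values, and 0 array columns were left unused.

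Groups and replicate numbers come from the labels. Platform annotation named the probe sets: 34945 had a single symbol, 932 had several and 9160 had none, and the first kind was averaged per gene on the log2 scale. Genes with a mean of at least 4 (log2) over the 6 arrays entered a linear model (limma 3.58.1 under R 4.3.3, functions lmFit and eBayes), with Benjamini-Hochberg adjustment over all of them and calls at 0.05. Probe sets were fitted likewise. Intervals are limma's 95% intervals. The script was tested on simulated data. Members and lists were chosen with earlier results of these data known. Named were all members, list genes past the threshold or failing that the 2 of lowest adjusted p, and the 2 genes most correlated with each tested member. Bnip3 and Cycs were named besides, after their values were seen, and some genes as list examples or for being on the study's target list. Other choices tried were the filter, normalization between arrays, the variance model, the summary of probe sets, the replicate number and leaving out single arrays. Columns of comparisons by the authors were not part of the table. Of the 70 list genes, 12 were not analysed here.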

Additional observations from a re-analysis of the deposited data

How the results depend on the processing

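The filter, both normalizations, the intensity trend and both other summaries of probe sets kept the single call among the members. Variance estimated gene by gene gave 0 member calls, 0 member probe sets, 1 pathway gene and 102 genes in all. With the replicate block the counts were 0 members, 0 probe sets and 597 genes in all (Bok adjusted p = 0.0541 from limma). Same-numbered arrays did not deviate together (r = -0.217, -0.0221 and 0.0292), and no array correlated best with its own number, so the numbers name arrays and do not pair them. Calls among pathway genes, 3 as reported, were 5 with the intensity trend and 5 with the brightest probe set. Leaving out single arrays gave 0 to 1 members, 0 member probe sets in each fit, 1 to 3 pathway genes and 357 to 783 genes in all, against 1171. Small differences changed sign over the same fits, with none past the test. Bak1 ranged from -0.225 to 0.0175 on the log2 scale, Mcl1 probe sets 1416881_at and 1456243_x_at from -0.032 to 0.20 and from -0.06 to 0.16, and Bcl2l1 probe set 1420888_at from -0.077 to 0.28. The counts of members up and down at least 1.2-fold, 1 and 2, were also 1 and 2 without the minimum on the Dcr WT arrays. In further settings chosen after seeing the data, 0 were up with quantile normalization, median centring or the median of probe sets, and 4 were down with the brightest probe set (Bcl2l2, Bok, Bak1 and Bcl2l13), where the 1 up was Bcl2. Leaving out single arrays gave 0 to 1 up and 1 to 2 down. The number of arrays, 3 a group, limits the precision, and the values used here carry no measure of background for dim probe sets.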
